A study of Mus musculus with 6 samples.

Results

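Foxp3 and 8 transcription factors that work with it in regulatory T cells (Treg) were followed through 6 RNA sequencing libraries. The 9 genes are Foxp3, Ikzf2, Ikzf4, Ikzf1, Runx1, Cbfb, Ets1, Elf1 and Creb1, found by symbol among the 36811 gene rows of the deposited table. The cells were spleen Treg of C57BL/6 mice aged 18 to 21 weeks, enriched for CD4 and sorted by EGFP. The 3 libraries labelled cKO came from Bach2fl/fl Foxp3EGFP-Cre-ERT2 mice and the 3 labelled WT from Bach2+/+ Foxp3EGFP-Cre-ERT2 mice. Bach2 is a transcriptional repressor, and the comparison asks what its loss in Treg does to these genes. Both groups carry the EGFP and Cre-ERT2 insertion at Foxp3, so each Foxp3 value comes from a modified locus and no unmodified mice were compared. Cre-ERT2 is made where Foxp3 is made and acts only with tamoxifen, which the labels do not mention. Whether each library came from its own animal is not stated, and p-values cover the spread between libraries only. Levels are in FPKM, fragments scaled to transcript length and library size. Where 3 values are given for a group they are in the order of libraries 1, 2 and 3.

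Foxp3 is a forkhead protein that binds DNA in a large complex, and it both activates and represses genes. Eos (Ikzf4), Helios (Ikzf2) and Ikaros (Ikzf1) are zinc finger proteins of 1 family, and Eos is known as a corepressor partner of Foxp3. Runx1 binds DNA with its non-binding partner Cbfb, and this pair acts both on the Foxp3 gene and with the Foxp3 protein. Ets1 and Elf1 share the ETS domain, and Ets1 and Creb1 bind regulatory elements of the Foxp3 gene.

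No member passed the test between the libraries labelled cKO and WT, and the groups overlapped in each of the 9 genes. Of the 9 genes, 0 passed an adjusted p of 0.05 (limma, Benjamini-Hochberg over 11979 genes), where 3 of all genes tested passed, 0.025%. At an unadjusted p under 0.05 there were 0 members as well, against 5.37% of all genes. The groups were free of overlap in 0 members, against 10.7% of all genes (6.96% with cKO higher and 3.75% with cKO lower).

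The targeted gene does not separate the labels. Bach2 gave 7.88, 9.19 and 6.44 FPKM in cKO and 3.29, 8.25 and 4.80 FPKM in WT, a log2 difference of 0.52 with a 95% interval from -0.24 to 1.27 (limma, adjusted p = 0.925). The difference was 0.26 without WT 1 and 0.81 without WT 2. The row covers the whole gene, and the deleted part is not given in the sources used here, so directions below rest on the labels alone. The estimated depth was highest in cKO 2 and lowest in WT 2. T cell markers were high in each library, with Cd3e between 312 and 488 FPKM and Cd4 between 318 and 474 FPKM. Of the defining Treg markers, Il2ra stood between 47.6 and 60.2 FPKM. Of the 5 CD8 T and NK cell markers, Cd8a lay at or under 0.531 FPKM, while Cd8b1 lay between 18.8 and 22.4 FPKM and Gzma between 2.99 and 8.28 FPKM. The B cell marker Cd79b lay between 80.5 and 112 FPKM. The 5 erythroid markers summed to 132 to 281 FPKM in the libraries labelled cKO and to 37.9 to 118 FPKM in those labelled WT. The 6 myeloid markers summed to 150 to 637 FPKM and to 128 to 205 FPKM. Most of the highest sum, in cKO 2, was S100a8, at 545 FPKM there and 74.6 to 152 FPKM in the other libraries. Lyz2 was also highest in cKO 2, at 83.2 FPKM, while Csf1r was lowest there, at 3.23 FPKM. The part of these markers in the values below was not tested. In bulk RNA, fewer cells of a type and less RNA per cell cannot be told apart.

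Foxp3 (ENSMUSG00000039521), the factor that defines Treg, lies on chromosome X. RefSeq gives 2 start sites for it, and the 250 bases before each are shown because the table cannot separate them: a single row holds all Foxp3 transcripts. The first is chrX:7579426-7579675 and the second chrX:7580233-7580482, both on the plus strand of GRCm38.p6. The values themselves were made on an earlier build. Capitals mark matches to the ETS core GGAAG on either strand.
Foxp3 window 1: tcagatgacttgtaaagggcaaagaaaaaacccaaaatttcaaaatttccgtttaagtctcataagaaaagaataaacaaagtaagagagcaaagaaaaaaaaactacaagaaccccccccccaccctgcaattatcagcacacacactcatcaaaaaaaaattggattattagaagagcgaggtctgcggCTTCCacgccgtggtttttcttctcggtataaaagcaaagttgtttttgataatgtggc
Foxp3 window 2: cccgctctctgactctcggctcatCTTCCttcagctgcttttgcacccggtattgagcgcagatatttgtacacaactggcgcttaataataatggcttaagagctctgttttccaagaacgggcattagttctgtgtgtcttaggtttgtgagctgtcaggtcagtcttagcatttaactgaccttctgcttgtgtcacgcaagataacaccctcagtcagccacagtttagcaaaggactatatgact
All 250 bases of both windows also lie in an exon of Flicr, a long noncoding RNA on the same strand (GENCODE M21, GRCm38), and 109 bases of the first lie in an exon of a Foxp3 transcript. Reads from Foxp3 and Flicr therefore cannot be fully told apart here.

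Foxp3 gave 6.59, 9.44 and 5.75 FPKM in cKO and 7.004, 5.16 and 7.51 FPKM in WT. The groups overlapped, with the highest value in cKO 2 and the lowest in WT 2. Limma put the log2 difference, taken on log2(FPKM + 1), at 0.12 (SE 0.242, 95% interval -0.46 to 0.70, adjusted p = 0.976). No more than about 60 to 183 fragments lay behind each value, taking the longest coding transcript and the estimated depth. Counting error then gives an interval of at least 8.12 to 10.9 FPKM in cKO 2 and of at least 3.94 to 6.63 FPKM in WT 2 (exact Poisson, 95%). Cells of both groups were sorted on the reporter at this same gene.

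Flicr, which is known to restrain Foxp3 expression, gave 2.78, 3.95 and 1.501 FPKM in cKO and 1.77, 1.40 and 2.74 FPKM in WT. These values rest on no more than about 15 to 69 fragments. The highest value was in cKO 2, as for Foxp3, but the counting interval of Flicr there overlapped those of cKO 1 and WT 3 (exact Poisson, 95%). At this depth cKO 2 could thus not be told apart from cKO 1 and WT 3, nor could WT 2, cKO 3 and WT 1 from each other. On the opposite strand 2 genes also overlap Foxp3: Ccdc22, at 18.2 to 25.4 FPKM, and Ppp1r3f, at 5.70 to 16.6 FPKM, and the strand setting is not given.

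Within the Ikaros family, Ikzf4 (ENSMUSG00000002578), which encodes Eos, gave 88.2, 105 and 86.3 FPKM in cKO and 90.02, 79.5 and 72.2 FPKM in WT. WT 1 lay above cKO 1 and cKO 3, so the groups overlapped, and limma put the log2 difference at 0.21 (SE 0.145, adjusted p = 0.925). Ikzf2 (ENSMUSG00000025997), which encodes Helios, gave 20.9, 22.4 and 21.5 FPKM in cKO and 17.5, 18.1 and 20.9 FPKM in WT. The cKO libraries lay close together, and WT 3 reached the level of cKO 1, with 20.93 against 20.92 FPKM. Limma put the log2 difference at 0.19 (SE 0.139, adjusted p = 0.925).

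Ikzf1 (ENSMUSG00000018654), which encodes Ikaros, had the largest difference in size among the 9 genes. It gave 77.5, 61.3 and 72.7 FPKM in cKO and 75.6, 93.2 and 94.8 FPKM in WT. WT 2 and WT 3 lay above each cKO library, and WT 1 lay between cKO 1 and cKO 3. The means were 70.5 ± 8.32 against 87.9 ± 10.6 FPKM (SD, n = 3 each), and limma put the log2 difference at -0.31 (SE 0.154, 95% interval -0.68 to 0.05, adjusted p = 0.925). Leaving out 1 library moved the difference between -0.42 (without WT 1) and -0.22 (without cKO 2), and libraries scaled to equal sums gave -0.16.

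The sum of the 5 Ikaros family genes lay between 209 and 234 FPKM in the 6 libraries. Ikzf4 made up 31.4% to 44.9% of it, Ikzf1 26.2% to 41.2%, Ikzf3 (Aiolos) 11.2% to 19.3%, Ikzf2 7.80% to 9.58% and Ikzf5 0.417% to 5.12%. The ratio of Ikzf4 to Ikzf1, chosen after its values were seen, came to 1.14, 1.71 and 1.19 for cKO and to 1.19, 0.853 and 0.762 for WT. Ikzf4 was thus above Ikzf1 in each cKO library and in WT 1, and below it in WT 2 and WT 3. WT 1, at 1.191, lay just above cKO 3, at 1.188, so the groups overlapped in this ratio too.

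Runx1 (ENSMUSG00000022952), the DNA-binding member of its pair, gave 16.9, 24.4 and 13.4 FPKM in cKO and 14.6, 19.6 and 15.5 FPKM in WT. The highest and the lowest value, cKO 2 and cKO 3, belonged to the same group. Limma put the log2 difference at 0.10 (SE 0.244, adjusted p = 0.977). Cbfb (ENSMUSG00000031885), which stabilises Runx proteins on DNA, varied less, with 31.1, 32.6 and 32.7 FPKM in cKO and 28.4, 26.7 and 33.2 FPKM in WT. Its highest library was WT 3 and limma put the log2 difference at 0.13 (SE 0.137, adjusted p = 0.936). Cbfb stood above Runx1 in each library, and Runx1 spanned 1.82-fold from its lowest to its highest library against 1.24-fold for Cbfb.

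Of the 10 promoter windows that RefSeq gives for 6 of the members, each 250 bases before to 50 after a start, 1 held the Runx letters TGTGGT, a window of Runx1 itself. These letters, on either strand, are in 16.8% of all 32851 windows. The 30 bases with both matches, just after the first Runx1 start at chr16:92826025-92826054 (minus strand, GRCm38.p6), are shown with the matches in capitals.
Runx1 site: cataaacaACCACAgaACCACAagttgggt
The ETS core GGAAG was in 8 of the 10 windows, both Foxp3 windows among them, against 71.4% of all windows. The Ikaros core TGGGAA, which shares GGAA with the ETS core, was in 1 window, 4 bases after the first Foxp3 start and so beyond the letters shown, against 25.6% of all. The full CRE TGACGTCA and the forkhead letters TGTTTAC were in 0 of the 10, against 1.79% and 3.65%. Both strands were searched, and a match is a description of letters only.

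Ets1 (ENSMUSG00000032035), an activator abundant in resting T cells, was the highest of the 9 genes. It gave 539, 316 and 515 FPKM in cKO and 445, 545 and 424 FPKM in WT. cKO 2 lay below the other five libraries, which spanned 424 to 545 FPKM in both groups. Limma put the log2 difference at -0.08 (SE 0.235, adjusted p = 0.984), and it was 0.17 without cKO 2 and 0.03 without WT 2. Elf1 (ENSMUSG00000036461), a related ETS factor, gave 83.3, 116 and 91.5 FPKM in cKO and 92.9, 84.6 and 93.6 FPKM in WT. Here cKO 2 was the highest library and cKO 1 the lowest, and limma put the log2 difference at 0.09 (SE 0.156, adjusted p = 0.970). Wbp4 overlaps Elf1 on the opposite strand and stood at 8.74 to 14.6 FPKM, highest in cKO 2 as well.

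Creb1 (ENSMUSG00000025958), which binds cyclic AMP response elements, gave 17.2, 12.6 and 11.3 FPKM in cKO and 11.0, 14.8 and 10.8 FPKM in WT. cKO 1 and WT 2 were high, and the other four libraries lay between 10.8 and 12.6 FPKM. Limma put the log2 difference at 0.15 (SE 0.218, adjusted p = 0.954).

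**Figure D1:**
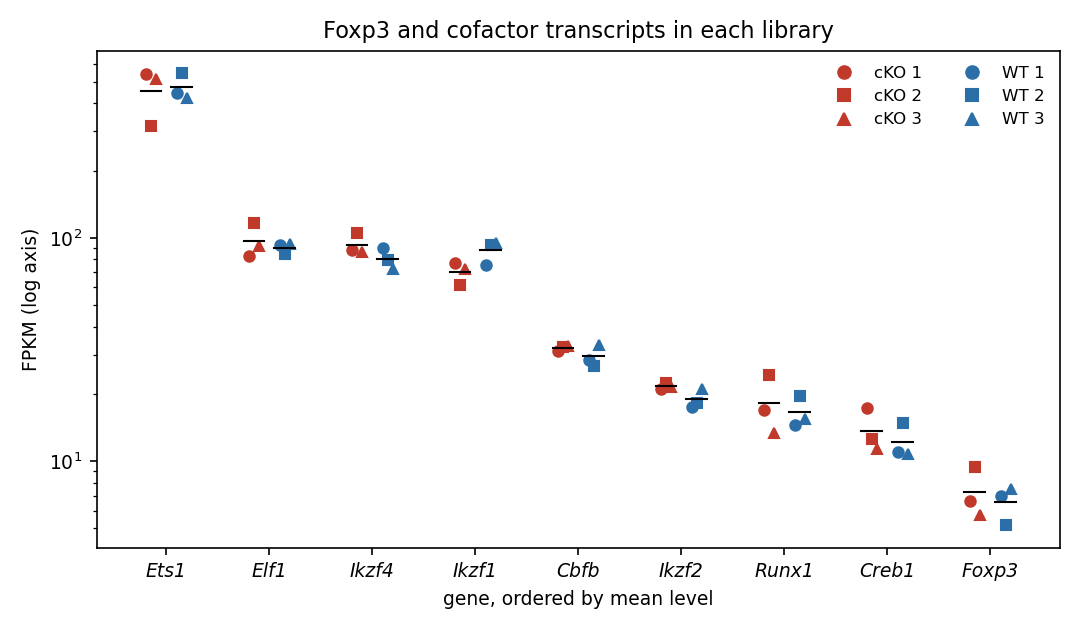
FPKM (log axis) of Foxp3 and its 8 cofactors, ordered by mean level, with a symbol for each of the 3 cKO (red) and 3 WT (blue) libraries and a black bar for each group's mean. Ets1 stands above and Foxp3 below the other genes in each library, and the 2 groups overlap in each of the 9 genes.

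FPKM is scaled for transcript length, so levels can be set in order across genes. The annotation behind the lengths is not given, so the order is one of deposited values. The place of Foxp3 also carries the limits given above: a modified locus, bases shared with Flicr, overlapping genes and few fragments. Over the 6 libraries the means ran from Ets1 (464 ± 88.0 FPKM, SD) through Elf1 (93.7 ± 11.8), Ikzf4 (86.9 ± 11.0) and Ikzf1 (79.2 ± 12.8) to Cbfb (30.8 ± 2.65). Below these came Ikzf2 (20.2 ± 1.95), Runx1 (17.4 ± 4.04), Creb1 (12.9 ± 2.59) and Foxp3 (6.91 ± 1.502). Ets1 ranked 295 and Foxp3 7884 from the top of the 11979 genes tested. Foxp3 was the lowest of the 9 genes in each library, and its mean was 67.2-fold below that of Ets1. Between Elf1, Ikzf4 and Ikzf1 the ranges overlapped and the order changed between libraries. The ranges also overlapped between Ikzf2 and Runx1 and between Runx1 and Creb1. The other neighbours in the order did not overlap.

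The intervals limit how large a difference these libraries could hold. The 95% intervals of all 9 genes, not adjusted for their number, lay inside a 2-fold change on the FPKM + 1 scale, from 0.623-fold for Ikzf1 to 1.62-fold for Foxp3. Each interval also included 0, so none of the 9 differences could be told from 0 with 3 libraries in a group. The width differed between genes, so these bounds are not a limit of detection. Of the 9 log2 differences 7 were above 0 and 2 below, Ikzf1 and Ets1, and their median was 0.12 against 0.03 for all genes tested. Without cKO 2 the differences of Foxp3, Runx1 and Elf1 turned below 0 (-0.065, -0.12 and -0.048), as did Foxp3 without WT 2 (-0.024) and Creb1 without cKO 1 (-0.018). With 1 library left out the groups were free of overlap in 0 to 2 members, where 18.1% to 24.8% of all genes were.

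**Figure D2:**
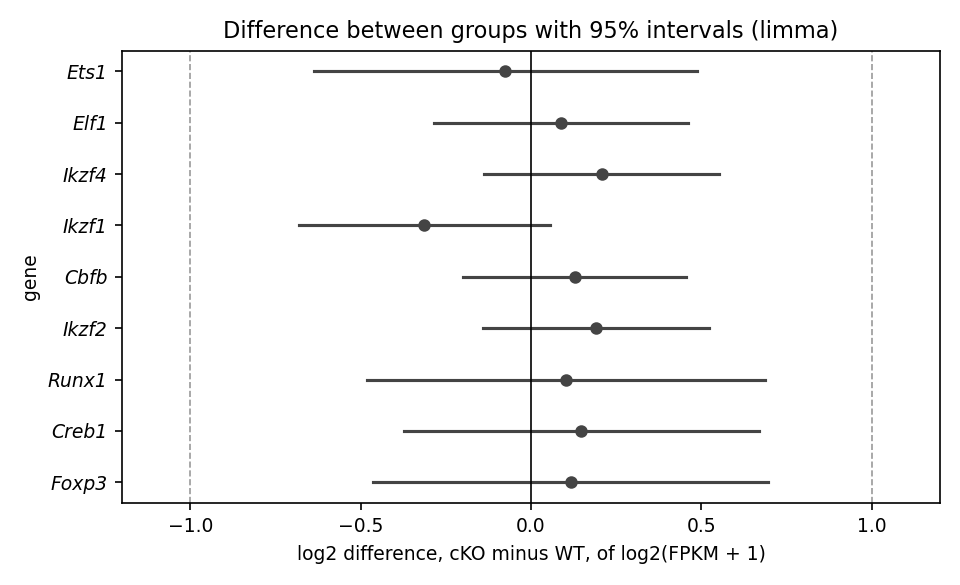
Log2 difference (cKO minus WT, of log2(FPKM + 1)) of each gene as a point with its 95% interval from limma as a line, and dashed lines at a 2-fold change. Each interval includes 0 and ends inside the dashed lines, and Ikzf1 lies farthest from 0 at -0.31.

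The level of each cofactor was also set against Foxp3 within a library. The plain ratio removes any factor that scales a whole library, while values on log2(FPKM + 1) do not fully remove it. All 8 ratios share the Foxp3 value, which rests on no more than about 60 to 183 fragments. Foxp3 was highest in cKO 2 and lowest in WT 2, and its counting error enters each ratio. Per Foxp3 FPKM there were 33.5 to 106 of Ets1, 12.3 to 16.4 of Elf1 and 9.62 to 15.4 of Ikzf4. For Ikzf1 the ratio was 6.49 to 18.1, for Cbfb 3.45 to 5.68 and for Ikzf2 2.37 to 3.75. It was 2.06 to 3.81 for Runx1 and 1.33 to 2.88 for Creb1. Elf1 kept the narrowest ratio, while that of Ets1 spanned from 33.5 in cKO 2 to 106 in WT 2. On log2(FPKM + 1), the difference between groups in this relative level ran from -0.43 for Ikzf1 to 0.09 for Ikzf4. Two-sided exact permutation p-values ran from 0.4 to 1 and each adjusted p over the 8 cofactors was 1, in a design whose smallest p is 0.1. For Ikzf1 the relative level came to 3.37, 2.58 and 3.45 for cKO and to 3.26, 3.94 and 3.49 for WT, with cKO 2 low and WT 2 high. With 1 library left out the relative difference of Ikzf1 ran from -0.59 (without cKO 3) to -0.15 (without cKO 2), and those of the other seven cofactors changed sign.

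**Figure D3:**
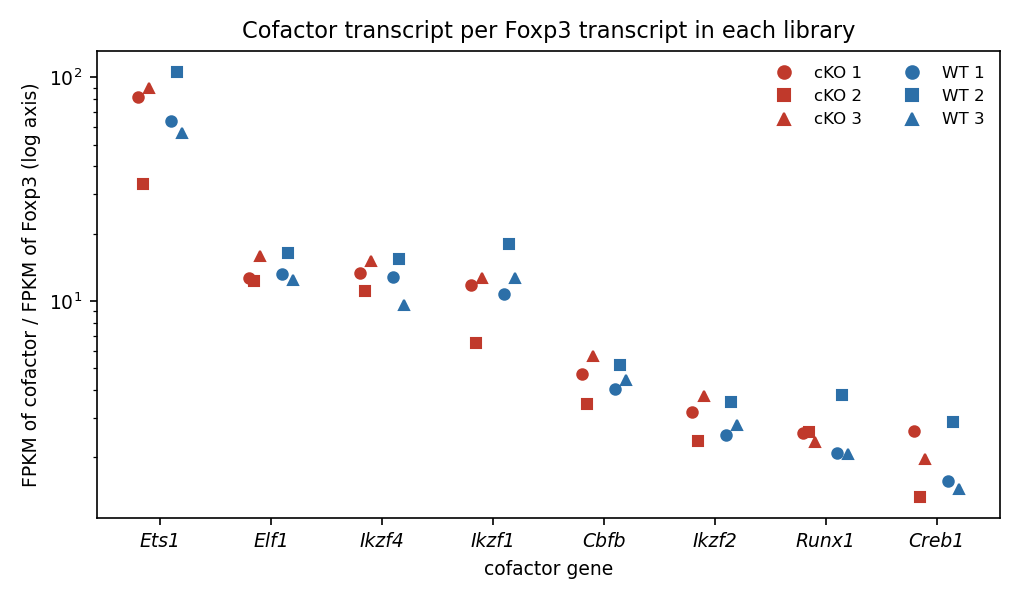
FPKM of each cofactor divided by the FPKM of Foxp3 in the same library (log axis), with cKO libraries in red and WT libraries in blue. The groups overlap for each of the 8 cofactors, and for Ets1, Ikzf1, Elf1 and Creb1 cKO 2 (red square) lies lowest and WT 2 (blue square) highest.

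Single libraries differed in how often they held the highest or lowest value of a member. cKO 2 held the highest value of 5 members (Foxp3, Ikzf2, Ikzf4, Runx1 and Elf1) and the lowest of 2 (Ikzf1 and Ets1). It was thus the extreme library for 7 of the 9 genes, and it was so for 48.8% of all genes tested, more than any other library. Against each gene's own mean, cKO 2 stood at 0.49 for Runx1, 0.42 for Foxp3 and 0.31 for Elf1, and at -0.53 for Ets1 and -0.35 for Ikzf1 (log2 of FPKM + 1). cKO 2 also had the highest estimated depth and the highest sum of myeloid markers, most of it S100a8. The part of depth and of these markers was not tested. In WT 2, Foxp3 was low (-0.34) while Ets1 (0.26) and Ikzf1 (0.25) were high. Foxp3, Elf1, Ikzf4, Ikzf2 and Cbfb stood on the opposite side of their means from Ets1 in both of these libraries. Ikzf1 and Creb1 stood on the same side as Ets1 in both, and Runx1 was above its mean in both.

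**Figure D4:**
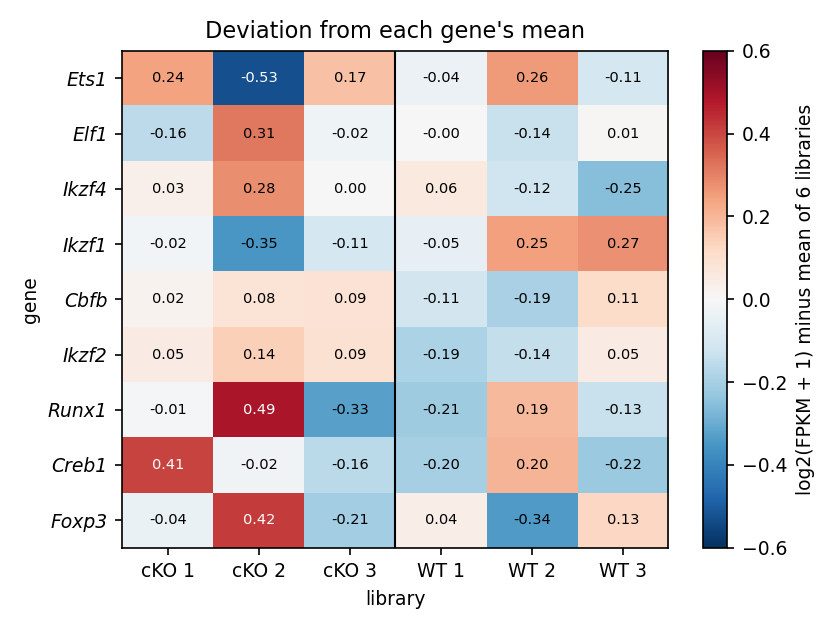
Deviation of log2(FPKM + 1) from each gene's mean over the 6 libraries, in color and as a number, with genes in rows, libraries in columns and a line between the groups. cKO 2 holds the strongest colors, from 0.49 for Runx1 to -0.53 for Ets1, and no gene has 1 color throughout a group and the other color throughout the other.

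The genes whose pattern over the 6 libraries was most like that of Foxp3 were Dynll1, Hmga1, Fam89b, Lin52 and Pgp. Likeness was the root mean square difference between centred log2(FPKM + 1) values, 0.0350 to 0.0579 for these 5 among 7635 genes. The 7635 had a symbol and a mean of at least 5 FPKM. Predicted genes, unnamed clones, genes named as pseudogenes, small RNAs and antigen receptor segments were left out. The nearest, Dynll1 (a light chain of dynein), gave 223, 293 and 184 FPKM in cKO and 228, 178 and 246 FPKM in WT. Among the members the nearest to Foxp3 was Elf1 (0.140, place 149) and the farthest Ets1 (0.507, place 6533). The 6 points share library depth and composition, and these genes were picked for likeness. Hmga1 has a near-identical copy, so its value is uncertain.

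The paralogs of the members were measured in the same way. Of 15, 13 reached the mean of 1 FPKM needed for testing, and 0 passed in either direction (limma), with a median log2 difference of 0.12 against 0.03 for all genes, and of 0.00055 without cKO 2. At an unadjusted p under 0.05 there was 1 of the 13, Runx2, where 5.37% of all genes were. Runx2, a Runx factor that also pairs with Cbfb, gave 7.17, 13.7 and 8.35 FPKM in cKO and 3.64, 5.05 and 6.03 FPKM in WT. Each cKO library lay above each WT library, as in 6.96% of all genes, and limma put the log2 difference at 0.84 (SE 0.289, adjusted p = 0.915). It was 0.59 without cKO 2, and its unadjusted p was above 0.05 without cKO 2 (limma, 0.0622), WT 1 (0.0800) or WT 2 (0.0511). Runx3, the third Runx factor, gave 7.17, 24.1 and 8.24 FPKM in cKO and 8.06, 9.30 and 9.07 FPKM in WT, with cKO 2 apart. All 3 Runx genes had their highest value in cKO 2, which was the highest library for 25.4% of all genes tested.

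Foxp1, the forkhead relative that is abundant in T cells, had means of 122 ± 15.4 FPKM in cKO and 124 ± 3.50 FPKM in WT, above Foxp3 in both. Foxp4 stood at 16.3 ± 3.43 against 18.9 ± 3.93 FPKM, and Foxp2 was listed at 0 in each cKO library and at no more than 0.244 FPKM in those labelled WT. Aiolos (Ikzf3) stood at 40.9 ± 4.37 against 34.3 ± 9.44 FPKM and Ikzf5 ranged from 0.970 to 11.7 FPKM. The ETS relatives Fli1 (37.8 to 45.2 FPKM), Elf2 (31.0 to 51.1), Elf4 (13.3 to 29.96), Gabpa (11.0 to 28.8) and Ets2 (13.6 to 23.1) were all measured in each library, and Elf3 did not exceed 0.260 FPKM. The Creb1 relatives Atf1 and Crem ranged from 64.3 to 96.9 and from 25.2 to 35.2 FPKM. The lowest Elf4 and Gabpa values and the highest Elf2 and Ets2 values were in cKO 2, the extreme library for 48.8% of all genes tested.

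Factors that act on the Foxp3 locus gave no call. Of 21 tested, 0 passed in either direction (limma, with 0 at an unadjusted p under 0.05), and the median log2 difference was 0.02 against 0.03 for all genes. The 3 highest were Gata3 at 298 ± 33.8 against 253 ± 20.3 FPKM, Rela at 79.9 ± 10.3 against 77.8 ± 5.69 FPKM and Stat5b at 52.6 ± 15.1 against 63.3 ± 10.5 FPKM (SD, n = 3 each). Tet2 and Tet3, enzymes that keep the Foxp3 locus demethylated and named here after their values were seen, were the 2 of 21 whose groups did not overlap, a share near the 10.7% of all genes. Tet2 stood at 2.70 ± 0.459 against 4.03 ± 0.409 FPKM and Tet3 at 5.53 ± 0.488 against 7.12 ± 1.16 FPKM, and neither passed.

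Corepressors and chromatin partners gave no call either. Of 21, 19 were tested, 0 passed (limma), 1 had an unadjusted p under 0.05, a share near the 5.37% of all genes, and the median log2 difference was 0.0047. The 3 highest, Mta2 (154 ± 25.2 against 175 ± 35.6 FPKM), Hdac1 (139 ± 21.7 against 130 ± 3.38 FPKM) and Stub1 (96.0 ± 5.48 against 95.7 ± 6.02 FPKM), differed by less than their spread. The gene with the low unadjusted p was Kat2b, an acetyltransferase. It gave 27.3, 11.9 and 25.5 FPKM in cKO and 32.8, 36.5 and 36.5 FPKM in WT, lowest in cKO 2 (limma, log2 difference -0.77, adjusted p = 0.920), and the difference was -0.40 without cKO 2. Ezh2 and Rbpj, named after their values were seen, did not pass but were free of overlap with cKO higher, at 32.1 ± 5.29 against 24.4 ± 0.735 FPKM and at 6.75 ± 0.372 against 5.84 ± 0.561 FPKM. With Kat2b this made 3 of 19, against 10.7% of all genes.

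Genes known to be activated or repressed by Foxp3 were described as a readout of the complex. Of 14 activated genes tested, 0 passed (limma, with 0 at an unadjusted p under 0.05), 9 lay above 0 and the median log2 difference was 0.09. Tnfrsf18 (GITR) stood at 2367 ± 526 against 1892 ± 388 FPKM, Izumo1r (folate receptor 4) at 1825 ± 158 against 1763 ± 45.3 FPKM and Capg at 962 ± 96.7 against 770.4 ± 83.0 FPKM (SD, n = 3 each). The groups did not overlap in 2 of the 14, against 10.7% of all genes, the second named after its values were seen: Capg was higher and Lrrc32, at 59.7 ± 14.7 against 77.0 ± 4.71 FPKM, lower in the libraries labelled cKO. Of 14 repressed genes 12 were tested, 0 passed (limma), 6 lay above 0 and the median log2 difference was 0.0087. Zap70 (334 ± 31.1 against 334 ± 25.2 FPKM), Ptpn22 (129 ± 16.2 against 133 ± 18.0 FPKM) and Tcf7 (124 ± 7.26 against 129 ± 13.1 FPKM) differed by less than their spread. At an unadjusted p under 0.05 (limma) there was 1 of the 12, Themis, where 5.37% of all genes were. Themis, a T cell receptor signalling protein, stood at 22.8 ± 2.20 against 14.3 ± 3.07 FPKM (limma, log2 difference 0.65, adjusted p = 0.874). Its groups did not overlap, nor did those of Bcl2, a survival gene named after its values were seen, at 21.7 ± 3.56 against 28.7 ± 4.04 FPKM, which made 2 of 12 against 10.7% of all genes. Below the minimum of 1 FPKM, and also named after its values were seen, Pde3b gave 1.79, 1.58 and 0.456 FPKM in cKO and 0.0321, 0.143 and 0.0733 FPKM in WT. With no filter its log2 difference was 1.02 (limma, unadjusted p = 0.00853, adjusted p = 0.882) and its groups did not overlap. Of 17773 genes in that fit, 546 had an unadjusted p under 0.05 (limma) with cKO higher and 313 with cKO lower, and 8.97% were free of overlap. Hdac9, of the corepressor list and also below the minimum, differed the other way. It gave 0.819, 0.262 and 0.276 FPKM in cKO and 1.01, 1.17 and 1.03 FPKM in WT.

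**Figure D5:**
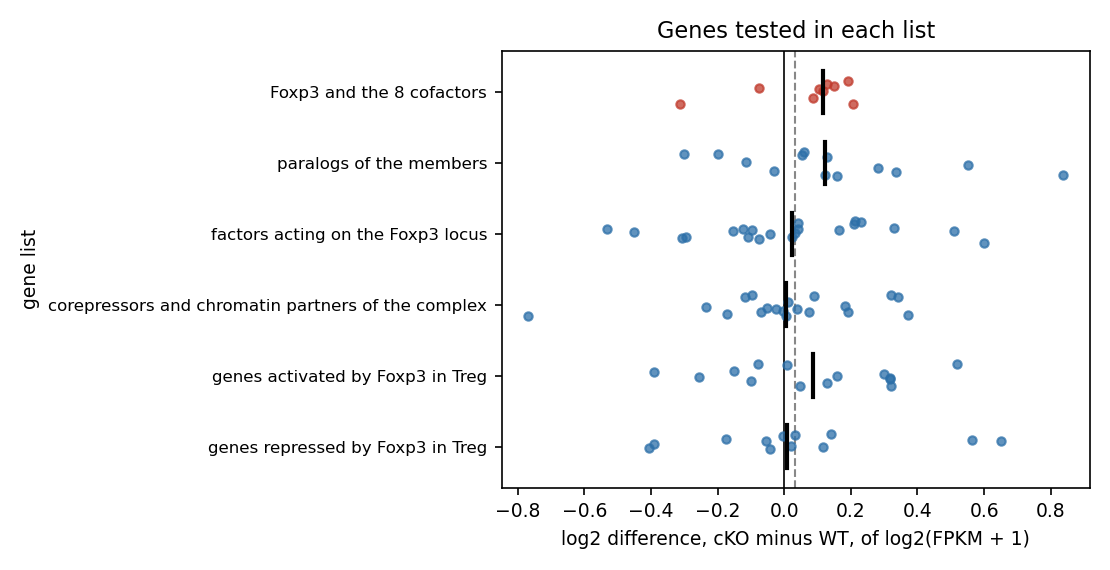
Log2 difference (cKO minus WT, of log2(FPKM + 1)) of each tested gene, with Foxp3 and its cofactors in red, 5 lists of related genes in blue, a black bar at each list's median and a dashed line at the median of all genes tested. Each list scatters on both sides of 0, with medians from 0.0047 to 0.12.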

How the data were processed

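RNA of Treg sorted by EGFP was made into libraries by SmartSeq2 and sequenced, per the labels' protocols. FastQC, cutadapt, HISAT2 and the builds NCBIM37 and mm9 are named without versions in the submitters' processing notes. The authors deposited FPKM values (fragments scaled to transcript length and library size) in 36811 gene rows, made with cuffnorm according to the name of the table. The sources used here give no annotation, strand setting or filter. Ensembl identifiers were matched to symbols in a GENCODE M21 table (31840 matched), and all 9 members matched 1 row each.

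The 11979 genes whose mean reached 1 FPKM, all 9 members among them, entered a limma fit (version 3.58.1, R 4.3.3) of log2(FPKM + 1) on group, using a variance trend but no block. P-values were adjusted by Benjamini-Hochberg over all genes tested, at 0.05. For low genes this scale gives too small a fold. The procedure was also run on simulated data with independent errors, in which only genes above a set mean level were changed. Foxp3 and Creb1 lie below that level, and no result given here rests on that run. Levels relative to Foxp3 were compared by exact permutation over libraries (scipy 1.17.1).

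Whole reads could not be recovered for most genes, which leaves no basis for a count test. A scale from fragments to FPKM was read from the spacing of low values in single-transcript genes of at least 2000 bases, where 74.9% to 84.9% of values lay within 0.1 of a whole fragment. The scale, 3.06 M (WT 2) to 5.04 M fragments (cKO 2), need not be the number sequenced.

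The members and the gene lists were chosen with earlier results of these data known. The text names all members and their paralogs. From each other list it names the 3 genes with the highest mean and any that passed, besides a few named after their values were seen, and for likeness to Foxp3 the 5 nearest genes. Alternatives were other pseudocounts, filters, scalings and weights, a replicate block, a fit with no variance trend, and leaving out single libraries.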

Additional observations from a re-analysis of the deposited data

How the results depend on the processing

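In none of the 16 alternatives did a member pass (limma, smallest adjusted p 0.526, for Ikzf2 with library quality weights). Ikzf2, Ikzf4 and Cbfb kept a positive and Ikzf1 a negative difference in each. The count of 3 genes passing among all tested fell to 1 under the replicate block and lay at 5 to 15 when 1 library was left out (15 without WT 2). The count of 0 members whose groups do not overlap was 2 with equal sums (Ikzf2 and Cbfb, higher in cKO, where 14.6% of all genes were free of overlap), 1 with trimmed-mean scaling (Ikzf1, lower, with 10.7% of all genes) and 0 to 2 without 1 library (18.1% to 24.8%). Equal sums moved the median of all genes from 0.03 to 0.17 (log2), and values under it are to be read against that shift: Ikzf2 at 0.34, Cbfb at 0.28 and Ets1 at 0.081, which lay 0.17 and 0.11 above and at -0.09 from the median. Library quality weights turned Foxp3 (-0.091), Runx1 (-0.063) and Ets1 (0.10), and quantile normalization, under which the median of all genes was -0.017, turned Elf1 (-0.0043). Without 1 library the differences ranged from -0.065 to 0.25 for Foxp3, -0.12 to 0.29 for Runx1, -0.21 to 0.17 for Ets1, -0.048 to 0.19 for Elf1 and -0.018 to 0.29 for Creb1. Relative to Foxp3, a pseudocount of 5 turned Runx1 (0.0096) and Elf1 (0.0052). Without 1 library the relative differences ranged from -0.59 to -0.15 for Ikzf1, -0.057 to 0.23 for Ikzf2, -0.077 to 0.22 for Ikzf4, -0.15 to 0.25 for Runx1, -0.13 to 0.18 for Cbfb, -0.43 to 0.23 for Ets1, -0.13 to 0.066 for Elf1 and -0.18 to 0.31 for Creb1. With the same shift, equal sums gave list medians of 0.15 for corepressors, 0.24 for activated and 0.16 for repressed genes. Some fits held fewer libraries, and the cause of these changes was not tested.

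Libraries that share a replicate number did not deviate together: the correlations were -0.060, -0.179 and -0.017 for equal numbers and up to 0.128 for others. The replicate block changed no member's call. Among the members, depth limits Foxp3 most, with no more than about 60 to 183 fragments, and Flicr had fewer still.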
